A study of Mus musculus with 9 samples.

Results

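The 10 genes described here belong to the oxidative stress arm led by the transcription factor NRF2: Nfe2l2, which encodes NRF2, Keap1, the small Maf genes Maff, Mafg and Mafk, and Srxn1, Txnrd1, Prdx1, Nqo1 and Osgin1. They were taken by name from the 21936 genes of the expression table, and all 10 had reads in every library. The table holds poly(A) RNA of wild-type (WT) mouse liver taken 2 h after the animals were injected intraperitoneally. The groups were NaCl, 25 mg/kg retrorsine and 50 mg/kg retrorsine, and each had 3 libraries. Retrorsine, a plant toxin of the pyrrolizidine alkaloid class, becomes a reactive pyrrole once hepatic cytochrome P450 has oxidised it. Every animal was WT, no other allele or agent is named, and strain, age and sex are not given in the labels. The design text calls the libraries of a group repetitions, and nothing says that they came from separate animals, so p-values measure only the spread between these samples, which may be technical.

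In unstressed cells KEAP1 holds NRF2 in the cytoplasm and hands it to a ubiquitin ligase for degradation. Electrophiles and oxidants modify cysteines of KEAP1, NRF2 then accumulates, and it binds the antioxidant response element of its target genes as a dimer with a small Maf protein. The targets detoxify quinones, repair oxidised peroxiredoxins and keep thioredoxin and glutathione reduced. Small Maf proteins have no activation domain of their own and also pair with the repressor BACH1 or with each other.

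Library totals lay between 15241261 and 18691736 counts. The hepatocyte markers, 10 of 10 of them detected in every library, held between 15.01% and 18.6% of the counts. Acinar pancreas markers summed to 214.5 to 5355 CPM (counts relative to library size, scaled by the trimmed mean of M values, TMM) with NaCl, 11.04 to 18.1 CPM after 25 mg/kg and 10.2 to 309.6 CPM after 50 mg/kg. The highest library of its group was replicate 1 with NaCl and replicate 2 after 50 mg/kg, and after 25 mg/kg up to 7 of the 11 markers were at 0. Neutrophil and monocyte markers summed to 209 to 1385 CPM with NaCl, 49.5 to 165.9 CPM after 25 mg/kg and 63.6 to 2974 CPM after 50 mg/kg, with at most 1 of 9 markers at 0. Of the acinar markers 11 of 11 fell at 25 mg/kg and 0 passed the test at 50 mg/kg (edgeR; 11 at an unadjusted p under 0.05), and of the 8 neutrophil and monocyte markers tested none passed at either dose (2 and 0 at an unadjusted p under 0.05). Lymphocyte markers summed to 1.47 to 2.16 CPM with NaCl, 2.73 to 5.47 CPM after 25 mg/kg and 6.68 to 38.6 CPM after 50 mg/kg, with up to 2 of 8 at 0, and 2 of the 3 tested rose at 50 mg/kg. Kupffer cell and macrophage markers summed to 297.5 to 392.5 CPM with NaCl, 379.5 to 568.8 CPM after 25 mg/kg and 246.3 to 611.2 CPM after 50 mg/kg, and 1 of 8 rose at each dose. Cholangiocyte markers summed to 35.9 to 131.2 CPM with NaCl, 31.4 to 43.3 CPM after 25 mg/kg and 38.9 to 60.9 CPM after 50 mg/kg, and 1 of 6 fell at 25 mg/kg. Sinusoidal endothelium markers lay between 283.4 and 444.3 CPM over all libraries, stellate cell and fibroblast markers between 206.1 and 556.8 CPM and erythroid markers between 49.1 and 315.3 CPM, with no call in these lists at either dose (0, 0 and 0 at an unadjusted p under 0.05 at 25 mg/kg, and 2, 1 and 1 at 50 mg/kg). The part of these lists in the changes of the 10 genes was not tested. For cell types of the liver, fewer cells and less RNA per cell cannot be told apart in whole tissue. The source of the acinar pancreas reads was not tested.

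The promoters of the 10 genes were read from RefSeq (build GRCm38.p6), 250 bases before to 50 bases after each start site, which gave 14 promoters because Maff and Txnrd1 have 3 each. Searched on both strands were the antioxidant response element core TGACNNNGC, the site of NRF2 with a small Maf, and the AP-1 heptamer TGANTCA, the site of Jun and Fos dimers. The core matched in 7 of the 14 promoters (50.0%), against 12.4% of all 32851 promoters in the reference, and the heptamer in 3 (21.4%), against 7.81%. These shares were not adjusted for base composition, and a match is a run of letters, not a binding site. Stretches around a core match are shown because the core is what several of the 10 promoters have in common. Osgin1, without a core match, is shown for its heptamer. Each is given 5′ to 3′ on the gene's strand, with the match in capitals.
Nfe2l2 (chr2:75704875-75704913, - strand, core): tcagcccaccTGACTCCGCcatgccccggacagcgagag
Maff (chr15:79346489-79346537, + strand, core): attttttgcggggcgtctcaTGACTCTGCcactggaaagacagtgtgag
Mafg (chr11:120633741-120633789, - strand, core reversed): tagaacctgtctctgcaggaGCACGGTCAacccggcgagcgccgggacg
Txnrd1 (second of 3 promoters, chr10:82859094-82859142, + strand, core reversed): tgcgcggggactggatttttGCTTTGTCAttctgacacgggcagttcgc
Prdx1 (chr4:116685446-116685494, + strand, core reversed): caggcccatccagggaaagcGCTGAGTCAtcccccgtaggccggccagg
Osgin1 (chr8:119437030-119437076, + strand, heptamer): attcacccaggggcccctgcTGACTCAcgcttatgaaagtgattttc
The Prdx1 core overlaps an AP-1 heptamer, while the Osgin1 stretch holds the heptamer alone. Prdx1 has a further heptamer at -237 to -231 from its start site, not shown. The Osgin1 window (chr8:119436897-119437196) lies inside the counted gene, which starts at 119434124, and the bases before that start were not searched. Mafk and Srxn1 also had a core match, that of Mafk at -13 to -5 from its start site, and neither is shown. Neither motif was found in the windows of Keap1 and Nqo1.

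Transcript levels per length at baseline spanned a wide range among these genes. On the FPKM scale (fragments per kilobase of gene at a common depth, as the authors deposited them), Osgin1 averaged 143 ± 36 and Prdx1 124 ± 14 with NaCl (SD, n = 3), and their libraries overlapped. Next came Txnrd1 at 30.2 ± 5.4, Mafg at 21.4 ± 3.0, Srxn1 at 17.3 ± 2.0 and Keap1 at 14.5 ± 4.0 FPKM. Each of these 4 overlapped its neighbour in this order, while every Txnrd1 library lay below every Prdx1 library. Mafk, Nfe2l2 and Maff, at 9.29 ± 1.9, 9.21 ± 0.39 and 8.12 ± 6.7 FPKM, overlapped one another. Nqo1 was lowest at 1.85 ± 0.20 FPKM, below every NaCl library of the other 9 genes.

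The first question was whether the 10 genes differed after retrorsine. After 25 mg/kg, 2 of the 10 passed edgeR's quasi-likelihood test (Benjamini-Hochberg adjusted p under 0.05 over 12557 genes tested), Srxn1 and Nfe2l2, both higher, where 5.90% of all tested genes were called higher. After 50 mg/kg 6 of the 10 passed, Srxn1, Nfe2l2, Mafk, Maff, Mafg and Txnrd1, all higher, beside 7.09% of all tested genes. The median log2 fold change of the 10 genes was 0.88 at 25 mg/kg and 1.00 at 50 mg/kg, against 0.01 and 0.00 for all tested genes. At each dose 7 of the 10 had all retrorsine libraries above all NaCl libraries, as did 17.7% of all tested genes at 25 mg/kg and 16.6% at 50 mg/kg. Both doses were set against the same NaCl libraries. The 10 genes were chosen with earlier results of these data known, so the shares beside them describe the set and do not test it. At 50 mg/kg 3 genes in place of 6 were called when replicate 2 or 3 of NaCl, or replicate 2 or 3 of 50 mg/kg, was left out. At 25 mg/kg 4 in place of 2 were called when the third 50 mg/kg library was left out, and DESeq2 called 6.

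**Figure D1:**
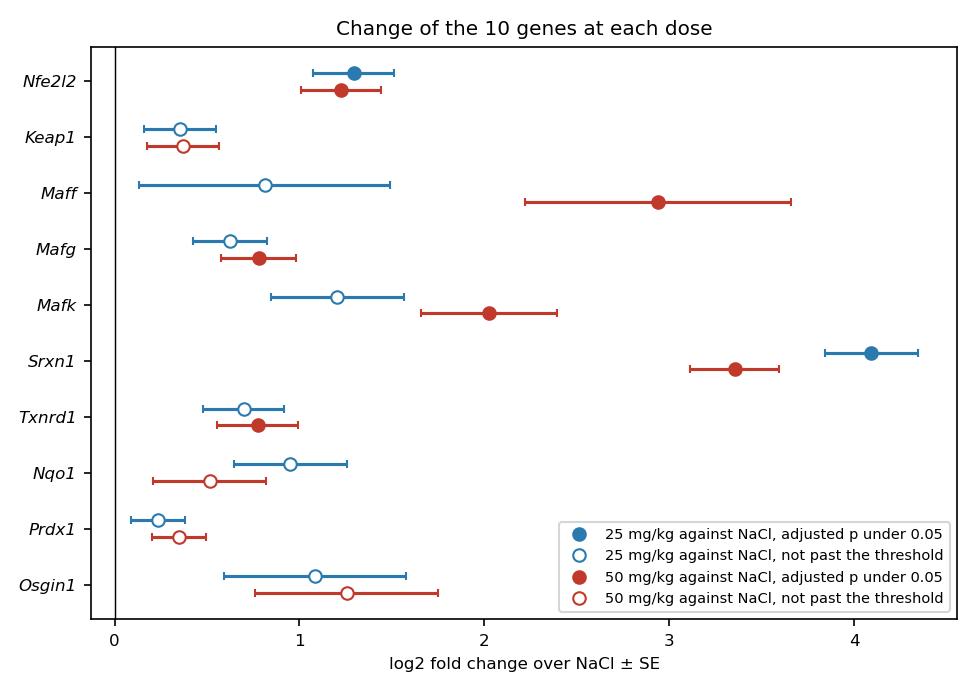
Log2 fold change over NaCl (± SE) of each of the 10 genes at 25 mg/kg and 50 mg/kg; filled points passed the adjusted p threshold of 0.05. Srxn1 stands apart at both doses, and all 20 points lie above 0, 8 of them filled.

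Nfe2l2 (ENSMUSG00000015839, GRCm38 chromosome 2, 75675513 to 75704641) stood at 39.3, 31.3 and 32.7 CPM with NaCl, at 58.3, 105 and 89.5 CPM after 25 mg/kg and at 75.0, 87.8 and 78.5 CPM after 50 mg/kg. Both retrorsine groups lay above all NaCl libraries and overlapped each other, with 25 mg/kg replicate 1 the lowest of the 6. Its log2 fold change was 1.29 (SE 0.22, adjusted p = 0.0064) at 25 mg/kg and 1.22 (SE 0.22, adjusted p = 0.0078) at 50 mg/kg. Both calls held under all 17 alternatives run.

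Keap1 (ENSMUSG00000003308, GRCm38 chromosome 9, 21229730 to 21239361), the adaptor that marks NRF2 for degradation, stood at 55.7, 82.9 and 59.7 CPM with NaCl, at 102, 76.9 and 74.6 CPM after 25 mg/kg and at 91.6, 76.4 and 88.2 CPM after 50 mg/kg. NaCl replicate 2 lay inside both retrorsine groups. Its log2 fold change was 0.35 (SE 0.20, adjusted p = 0.27) at 25 mg/kg and 0.37 (SE 0.20, adjusted p = 0.23) at 50 mg/kg, and no alternative called it. A noncoding gene annotated on the opposite strand overlaps the 3′ part of Keap1. Since the strand setting of the counting is not given, reads of the pair from this overlap cannot be told apart.

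The small Maf genes, the partners of NRF2 on DNA, all 3 rose at 50 mg/kg, and none passed the test at 25 mg/kg, where 6 of the 17 alternatives called Mafk, 4 called Mafg and 0 called Maff. The difference between the doses passed for none of them (values with the dose comparison). Maff (ENSMUSG00000042622, chromosome 15, 79346621 to 79359076) stood at 44.3, 8.13 and 12.6 CPM with NaCl, at 35.6, 27.5 and 50.7 CPM after 25 mg/kg and at 50.4, 174 and 273 CPM after 50 mg/kg. The 50 mg/kg libraries differed 5.41-fold among themselves and the NaCl libraries 5.45-fold, with NaCl replicate 1 close to 50 mg/kg replicate 1. Over NaCl the log2 fold change was 0.81 (SE 0.68, adjusted p = 0.47) at 25 mg/kg and 2.94 (SE 0.72, adjusted p = 0.025) at 50 mg/kg. In the same library order, neutrophil and monocyte markers summed to 1385, 209 and 543 CPM with NaCl, to 165.9, 49.5 and 78.7 CPM after 25 mg/kg and to 1268, 63.6 and 2974 CPM after 50 mg/kg. The library with the most marker counts held the highest Maff of the NaCl and the 50 mg/kg groups but not of the 25 mg/kg group, and the part of these markers in the Maff values was not tested.

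Mafk (ENSMUSG00000018143, chromosome 5, 139791513 to 139802653) stood at 46.1, 26.2 and 35.5 CPM with NaCl, at 85.1, 73.1 and 90.5 CPM after 25 mg/kg and at 83.0, 117 and 239 CPM after 50 mg/kg. Both retrorsine groups cleared the NaCl libraries, and 50 mg/kg replicate 3 was the highest of all. Mafk differed from NaCl by 1.21 (log2, SE 0.36, adjusted p = 0.054) at 25 mg/kg and by 2.03 (SE 0.37, adjusted p = 0.0084) at 50 mg/kg. The 50 mg/kg call held under all 17 alternatives, with a log2 fold change of 1.48 when that library was left out.

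Mafg (ENSMUSG00000051510, chromosome 11, 120625117 to 120633600) differed least of the 3 small Maf genes. It stood at 150, 98.5 and 110 CPM with NaCl, at 196, 196 and 160 CPM after 25 mg/kg and at 163, 227 and 224 CPM after 50 mg/kg. All retrorsine libraries lay above all NaCl libraries. Its log2 fold change was 0.63 (SE 0.20, adjusted p = 0.071) at 25 mg/kg and 0.78 (SE 0.20, adjusted p = 0.031) at 50 mg/kg. At 50 mg/kg the Maff call ended in 6 of 17 alternatives and the Mafg call in 7. Both ended when NaCl replicate 2 (adjusted p = 0.068 for Maff and 0.094 for Mafg) or NaCl replicate 3 (0.094 and 0.11) was dropped. The same held for dropping the second 50 mg/kg library (0.054 and 0.087) or the third (0.052 and 0.068). With NaCl replicate 1 dropped, the log2 fold change of Maff at 50 mg/kg was 3.996. The 3′ end of Mafg overlaps Sirt7 and that of Mafk overlaps Tmem184a, and reads from these overlaps cannot be told apart.

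Summed per length, small Maf transcripts came to 51.5, 29.3 and 35.7 FPKM with NaCl, to 70.7, 63.3 and 75.9 FPKM after 25 mg/kg and to 69.4, 136 and 187 FPKM after 50 mg/kg. Mafg was the most abundant of the family in all NaCl and 25 mg/kg libraries and in 50 mg/kg replicate 1. Its share was 48.0%, 64.0% and 58.3% with NaCl, 49.6%, 54.3% and 40.0% after 25 mg/kg, and 41.6%, 29.4% and 19.4% after 50 mg/kg. In 50 mg/kg replicates 2 and 3 Maff led instead, at 48.7% and 51.0% of the sum. Mafk kept between 21.3% and 32.6% throughout. Behind the Maff values lay 161 to 4001 reads per library.

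**Figure D2:**
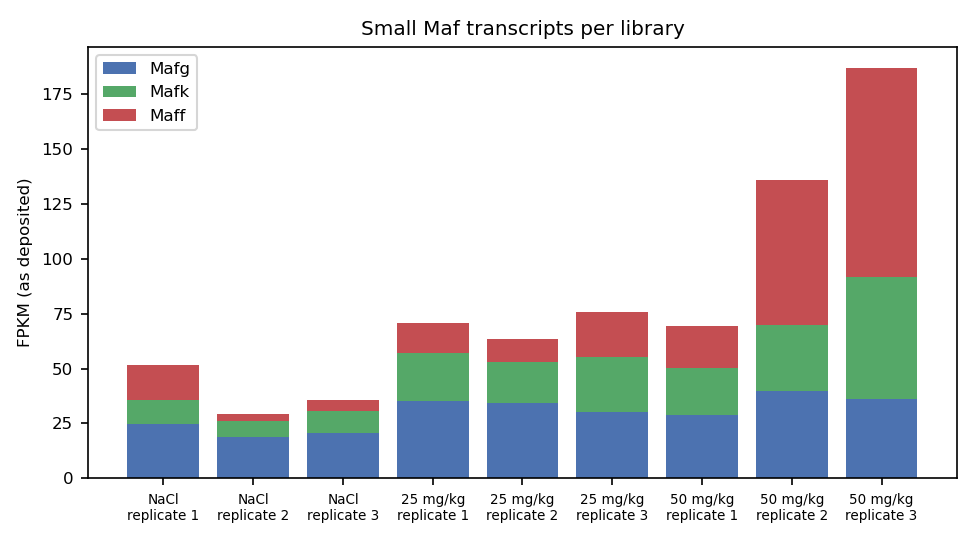
Deposited FPKM of Mafg, Mafk and Maff stacked for each of the 9 libraries. The stacks of 50 mg/kg replicates 2 and 3, at 136 and 187 FPKM, are the tallest, and Maff makes up 48.7% and 51.0% of them.

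Srxn1 (ENSMUSG00000032802, chromosome 2, 152105516 to 152111376) encodes sulfiredoxin, which repairs hyperoxidised peroxiredoxins. Its 250 bases before the RefSeq start site (GRCm38.p6, chr2:152105274-152105523, + strand) are shown because Srxn1 had the largest change of the 10 genes; capitals mark both AP-1 heptamers. The core match of Srxn1 lies just after the start site, outside this stretch. The second heptamer, followed by gc, differs from the core TGACNNNGC in a single letter and so was not counted as a core match.
Srxn1: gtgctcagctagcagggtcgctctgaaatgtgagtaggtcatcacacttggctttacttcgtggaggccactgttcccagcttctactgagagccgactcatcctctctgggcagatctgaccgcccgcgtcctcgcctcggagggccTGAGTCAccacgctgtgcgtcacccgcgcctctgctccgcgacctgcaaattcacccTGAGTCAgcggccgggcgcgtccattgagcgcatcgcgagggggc
Srxn1 stood at 46.7, 45.2 and 51.4 CPM with NaCl, at 886, 758 and 803 CPM after 25 mg/kg and at 687, 403 and 375 CPM after 50 mg/kg. The 3 groups did not overlap, and every 25 mg/kg library lay above every 50 mg/kg library. Over NaCl it differed by 4.09 (log2, SE 0.25, adjusted p = 0.00012) at 25 mg/kg, a 17.1-fold difference, and by 3.35 (SE 0.24, adjusted p = 0.00034) at 50 mg/kg, a 10.2-fold difference. By p it ranked 2 of 12557 tested genes at 25 mg/kg and 3 at 50 mg/kg, and by fold change 30 and 80. Both calls held under all 17 alternatives, with log2 fold changes between 4.03 and 4.15 at 25 mg/kg and between 3.03 and 3.51 at 50 mg/kg.

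**Figure D3:**
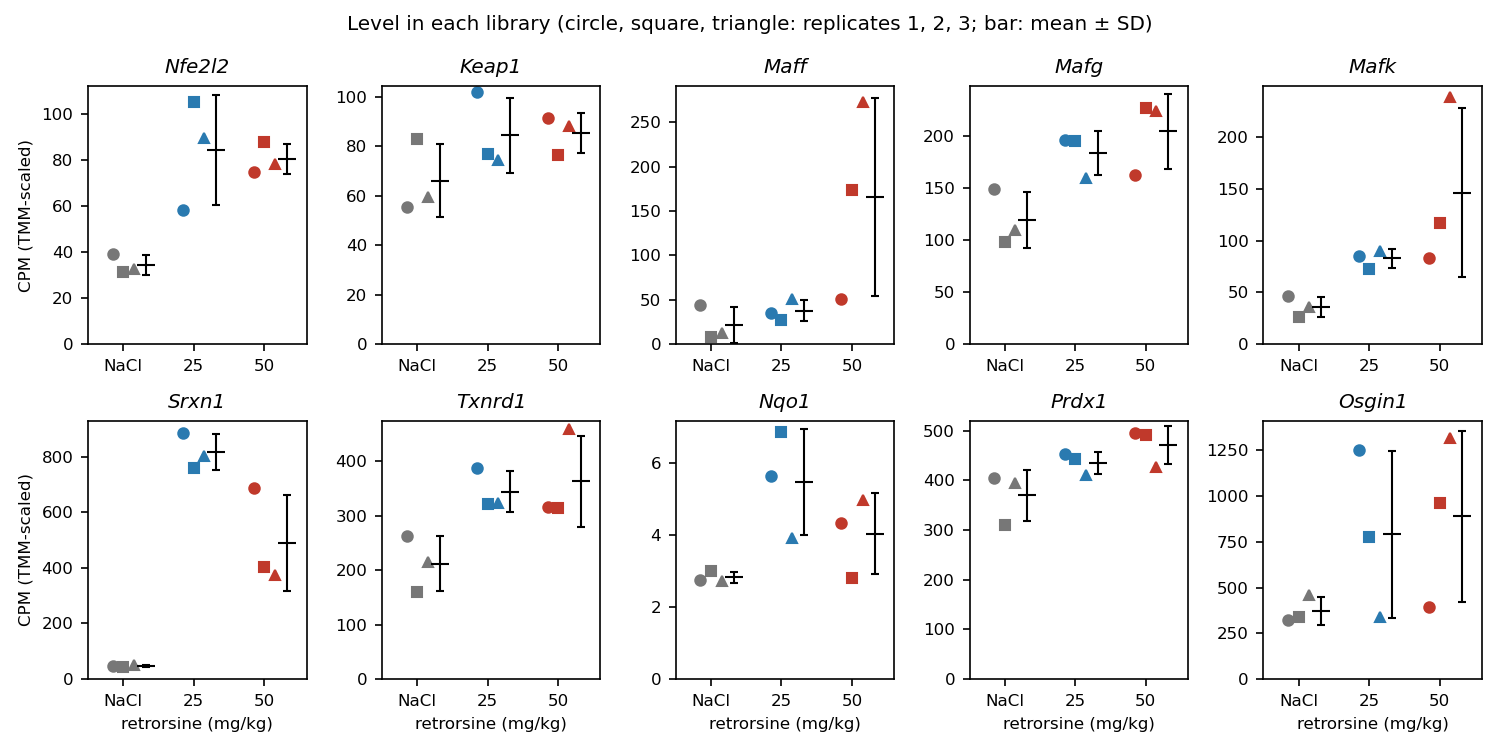
TMM-scaled CPM of each of the 10 genes in every library by retrorsine dose, with the mean and SD (n = 3) beside the points. Srxn1 separates the 3 groups without overlap, whereas the Osgin1 libraries of both retrorsine groups spread over more than 3-fold.

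Txnrd1 (ENSMUSG00000020250, chromosome 10, 82833951 to 82897712), the cytosolic thioredoxin reductase, spends NADPH to keep thioredoxin reduced. It stood at 262, 160 and 215 CPM with NaCl, at 387, 322 and 323 CPM after 25 mg/kg and at 316, 315 and 459 CPM after 50 mg/kg. All 6 retrorsine libraries lay above NaCl. Its log2 fold change was 0.70 (SE 0.22, adjusted p = 0.064) at 25 mg/kg and 0.78 (SE 0.22, adjusted p = 0.042) at 50 mg/kg. The call at 50 mg/kg ended in 11 of 17 alternatives, with an adjusted p of up to 0.115, and NaCl replicate 1 was the one library that could be dropped without losing it. Eid3, which lies within Txnrd1 on the same strand, had at most 38 reads. A further 2 genes are annotated on the opposite strand of Txnrd1 and have no row in the count table, and their reads cannot be told apart from those of Txnrd1.

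Prdx1 (ENSMUSG00000028691, chromosome 4, 116685544 to 116700822), a cytosolic peroxiredoxin and a substrate of both thioredoxin and sulfiredoxin, stood at 405, 311 and 394 CPM with NaCl, at 453, 443 and 410 CPM after 25 mg/kg and at 495, 492 and 427 CPM after 50 mg/kg. All retrorsine libraries lay above the NaCl libraries, the closest being 25 mg/kg replicate 3. Its log2 fold change was 0.23 (SE 0.15, adjusted p = 0.33) at 25 mg/kg and 0.35 (SE 0.15, adjusted p = 0.14) at 50 mg/kg, and no alternative called it. As a fold, this came to 1.18 at 25 mg/kg for the peroxiredoxin, beside 17.1 for the sulfiredoxin.

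Nqo1 (ENSMUSG00000003849, chromosome 8, 107388225 to 107403206), a quinone reductase and a widely used NRF2 target, was the least abundant of the 10. Between 41 and 103 reads lay behind each value, which limits the precision. It stood at 2.76, 2.98 and 2.71 CPM with NaCl, at 5.63, 6.85 and 3.90 CPM after 25 mg/kg and at 4.31, 2.79 and 4.97 CPM after 50 mg/kg. The 25 mg/kg libraries cleared NaCl, while 50 mg/kg replicate 2 lay within the NaCl range. Over NaCl, Nqo1 differed by 0.95 (log2, SE 0.31, adjusted p = 0.069) at 25 mg/kg and 0.51 (SE 0.31, adjusted p = 0.28) at 50 mg/kg. Of the 17 alternatives only DESeq2 called the difference at 25 mg/kg (adjusted p = 0.034), and 0 called it at 50 mg/kg.

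Osgin1 (ENSMUSG00000074063, chromosome 8, 119434124 to 119446256), an oxidative stress-induced growth inhibitor that is an NRF2 target in human cells, had the widest spread of the 10 genes within the 25 mg/kg group. It stood at 322, 337 and 460 CPM with NaCl, at 1255, 779 and 340 CPM after 25 mg/kg and at 392.2, 963 and 1319 CPM after 50 mg/kg. At each dose 1 library stayed inside the NaCl range, 25 mg/kg replicate 3 and 50 mg/kg replicate 1, and the other 2 lay above it. Highest and lowest differed 3.70-fold after 25 mg/kg, 3.36-fold after 50 mg/kg and 1.43-fold with NaCl. Over NaCl, Osgin1 differed by 1.08 (log2, SE 0.49, adjusted p = 0.18) at 25 mg/kg and 1.26 (SE 0.49, adjusted p = 0.11) at 50 mg/kg. Of the 17 alternatives 2 called it at 50 mg/kg, DESeq2 and the edgeR fit without that 50 mg/kg library (1.62, adjusted p = 0.049). At 25 mg/kg 0 of the 17 called it.

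**Figure D4:**
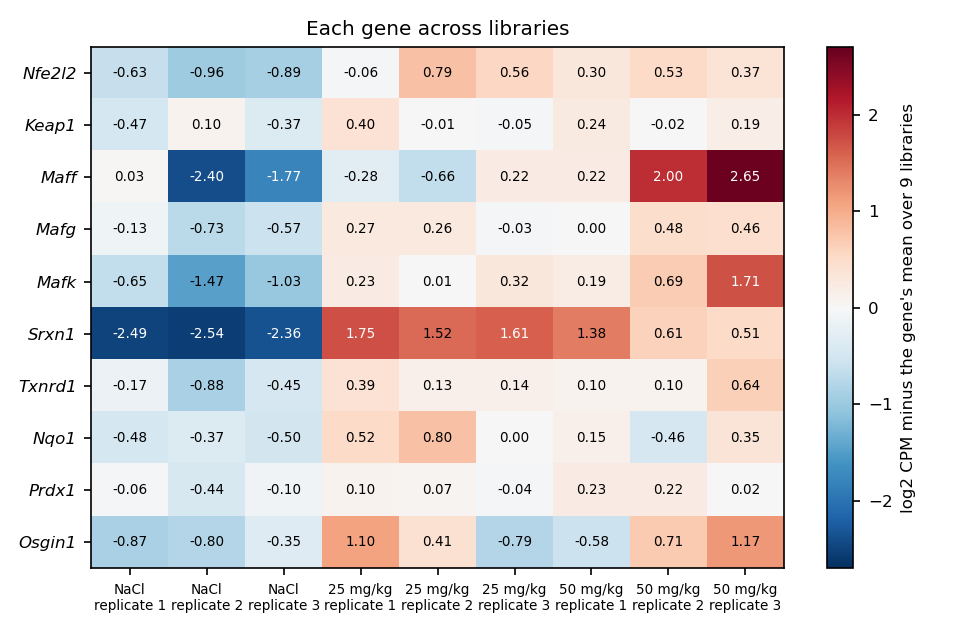
Log2 CPM of each gene in the 9 libraries minus that gene's mean over them. Srxn1 lies between -2.54 and -2.36 in the NaCl libraries and between 0.51 and 1.75 in the retrorsine libraries, while Maff peaks at 2.65 and Osgin1 at 1.17 in 50 mg/kg replicate 3, where Srxn1 is at its lowest among treated libraries.

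Which library of a dose was highest differed between the genes. Among the 50 mg/kg libraries, replicate 3 held the highest Maff, Mafk, Txnrd1, Nqo1 and Osgin1 and the lowest Srxn1 and Prdx1, and replicate 1 held the highest Srxn1, Prdx1 and Keap1 and the lowest Nfe2l2, Maff, Mafg, Mafk and Osgin1. Neutrophil and monocyte markers summed to 2974 CPM in replicate 3, the highest of all libraries, and to 1268 CPM in replicate 1. Among the 25 mg/kg libraries, replicate 1 held the highest Srxn1, Txnrd1, Keap1, Mafg, Prdx1 and Osgin1 and the lowest Nfe2l2.

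The second question was whether the doses differed. Between 50 and 25 mg/kg edgeR called 0 of the 10 genes, with 3 at an unadjusted p under 0.05, a p that 8.59% of all tested genes also had, and DESeq2 and limma-voom called 0 as well. Over all tested genes edgeR called 1 (0.00796%), Acacb, an acetyl-CoA carboxylase, higher after 50 than after 25 mg/kg. Acacb averaged 434 CPM with NaCl, 125 CPM after 25 mg/kg and 347 CPM after 50 mg/kg, so both means lay below NaCl. Its difference from NaCl passed at 25 mg/kg (-1.79, adjusted p = 0.00055) but not at 50 mg/kg (-0.32, adjusted p = 0.15). Srxn1 averaged 488 ± 172 CPM after 50 mg/kg and 816 ± 65 CPM after 25 mg/kg, a log2 difference of -0.74 (SE 0.22, unadjusted p = 0.0077, adjusted p = 0.55), and was the 1 gene of the 10 whose dose groups did not overlap; 6.00% of all tested genes lay lower without overlap. Maff averaged 166 ± 111 CPM after 50 mg/kg and 37.9 ± 12 CPM after 25 mg/kg (2.13, SE 0.70, adjusted p = 0.55), and Mafk 146 ± 82 CPM after 50 mg/kg and 82.9 ± 8.9 CPM after 25 mg/kg (0.82, SE 0.35, adjusted p = 0.56). Nqo1 was at -0.44 (SE 0.30, adjusted p = 0.75). For Nfe2l2, Keap1, Mafg, Txnrd1, Prdx1 and Osgin1 the log2 difference lay between -0.07 and 0.17. The signs of Nfe2l2, Keap1, Txnrd1 and Osgin1 turned in some alternatives. Between the doses 6 of the 8 neutrophil and monocyte markers tested had an unadjusted p under 0.05 (edgeR), with a list median of 3.26. For the acinar markers it was 7 of 11, with a list median of 6.89. No marker list had a call past the adjusted threshold, and the part of these markers in the dose values was not tested.

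The other genes of the pathway were taken as fixed lists, each read against the shares of all tested genes called higher (above) or lower, 7.56% at 25 mg/kg and 8.01% at 50 mg/kg. These lists too were chosen with earlier results of these data known. In the list of Keap1-NRF2 control genes and of the CNC factors related to NRF2, 2 of 13 rose and 1 fell at 25 mg/kg, and 2 rose and 2 fell at 50 mg/kg; the list medians were 0.13 and -0.04. Bach1, the repressor that competes with NRF2 for small Maf partners, stood at 114, 66.5 and 90.7 CPM with NaCl, at 203, 156 and 262 CPM after 25 mg/kg and at 257, 174 and 244 CPM after 50 mg/kg. Its log2 fold change was 1.20 (SE 0.26, adjusted p = 0.016) at 25 mg/kg and 1.32 (SE 0.26, adjusted p = 0.011) at 50 mg/kg. Sqstm1, which encodes the autophagy receptor p62 that sequesters KEAP1, rose by 1.27 (SE 0.19) at 25 mg/kg and by 1.22 (SE 0.19) at 50 mg/kg. Btrc, a substrate adaptor of another ligase that degrades NRF2, fell by 0.87 on the log2 scale at each dose. It averaged 16.6 ± 0.86 CPM with NaCl, 9.06 ± 1.5 CPM after 25 mg/kg and 9.06 ± 1.8 CPM after 50 mg/kg. Gsk3b, the kinase that marks NRF2 for that ligase, fell by 0.90 at 50 mg/kg (adjusted p = 0.016) and stood at -0.57 at 25 mg/kg (adjusted p = 0.082). Of the 3 calls at 25 mg/kg 1 was left when NaCl replicate 2, NaCl replicate 3 or the third 25 mg/kg library was dropped, and of the 4 at 50 mg/kg 2 were left when NaCl replicate 3 was dropped.

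In the thioredoxin, peroxiredoxin and glutaredoxin list, 1 of 20 genes rose at 25 mg/kg and 2 at 50 mg/kg, with list medians of 0.22 and 0.15. Sesn2, a stress-induced sestrin, rose by 1.41 (SE 0.34, adjusted p = 0.026) and 1.75 (SE 0.34, adjusted p = 0.011). Txn1, thioredoxin itself and the substrate of Txnrd1, was at 0.37 (adjusted p = 0.16) at 25 mg/kg and rose at 50 mg/kg by 0.63 (SE 0.16, adjusted p = 0.028), to 119 ± 18 CPM against 76.9 ± 7.2 CPM with NaCl. The Sesn2 call at 25 mg/kg was lost when NaCl replicate 1 or 2 or the second or the third 25 mg/kg library was dropped. Of the 2 calls at 50 mg/kg 1 was left when any NaCl library, or the first or the third 50 mg/kg library, was dropped. Among the enzymes that remove superoxide and peroxide by other routes, 1 of 7 rose at each dose: Gpx1, the main cytosolic glutathione peroxidase, by 0.92 (SE 0.14) and 0.70 (SE 0.14). Gpx1 lost its 50 mg/kg call when NaCl replicate 3 was dropped.

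In the glutathione arm of the NRF2 targets, 7 of 16 tested genes rose at 25 mg/kg and 3 at 50 mg/kg, and the list medians were 0.54 and 0.35. Gclc, the catalytic subunit of glutamate-cysteine ligase, stood at 326, 311 and 307 CPM with NaCl, at 748, 933 and 533 CPM after 25 mg/kg and at 501, 428 and 336 CPM after 50 mg/kg. Gclc differed from NaCl by 1.23 (log2, SE 0.22, adjusted p = 0.0078) at 25 mg/kg and 0.42 (SE 0.22, adjusted p = 0.21) at 50 mg/kg. Gsta1, a glutathione transferase, stood at 0.403, 0.202 and 0.201 CPM with NaCl, at 12.5, 15.9 and 11.1 CPM after 25 mg/kg and at 4.74, 5.39 and 0.477 CPM after 50 mg/kg. It differed from NaCl by 5.62 (log2, SE 0.79) at 25 mg/kg and by 3.73 (SE 0.78) at 50 mg/kg, and 50 mg/kg replicate 3 lay near the NaCl libraries. Gsta2 rose by 1.90 (SE 0.35) at 25 mg/kg, and at 50 mg/kg the other calls were Gstm1 (0.48, SE 0.13) and Gstm3 (1.11, SE 0.31). Gsta and Gstm genes have close copies, so their counts are uncertain. With any NaCl library, or the first or second 25 mg/kg library, dropped, 4 were called at 25 mg/kg. At 50 mg/kg the count was 0 with NaCl replicate 2 dropped, and 1 with NaCl replicate 1 or 3, the first or the third 25 mg/kg library or the third 50 mg/kg library dropped. No single removal left more than 2 calls at that dose, against 3 in the main fit. Slc7a11, the cystine transporter, was too low to test, with at most 0.886 CPM.

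In the NADPH, quinone, heme and iron arm 3 of 18 rose at each dose, with list medians of 0.16 and 0.42. At 25 mg/kg these were Ugdh, which makes UDP-glucuronate (1.52, SE 0.22), Htatip2, an oxidoreductase (1.49, SE 0.22), and Pgd of the pentose phosphate pathway (0.80, SE 0.15). At 50 mg/kg they were Pgd (1.17, SE 0.15), G6pdx, which opens that pathway (1.04, SE 0.26), and Htatip2 (0.99, SE 0.22). Hmox1, heme oxygenase, stood at 228, 24.0 and 50.6 CPM with NaCl, at 74.8, 59.2 and 44.5 CPM after 25 mg/kg and at 43.0, 50.7 and 310 CPM after 50 mg/kg, so that NaCl replicate 1 and 50 mg/kg replicate 3 held the high values. These had the highest neutrophil and monocyte markers of their groups (1385 and 2974 CPM), while 50 mg/kg replicate 1, with 1268 CPM of the markers, held the lowest Hmox1 of its group. The 3 calls at 50 mg/kg became 1 with any NaCl library dropped and 5 with the third 50 mg/kg library dropped.

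**Figure D5:**
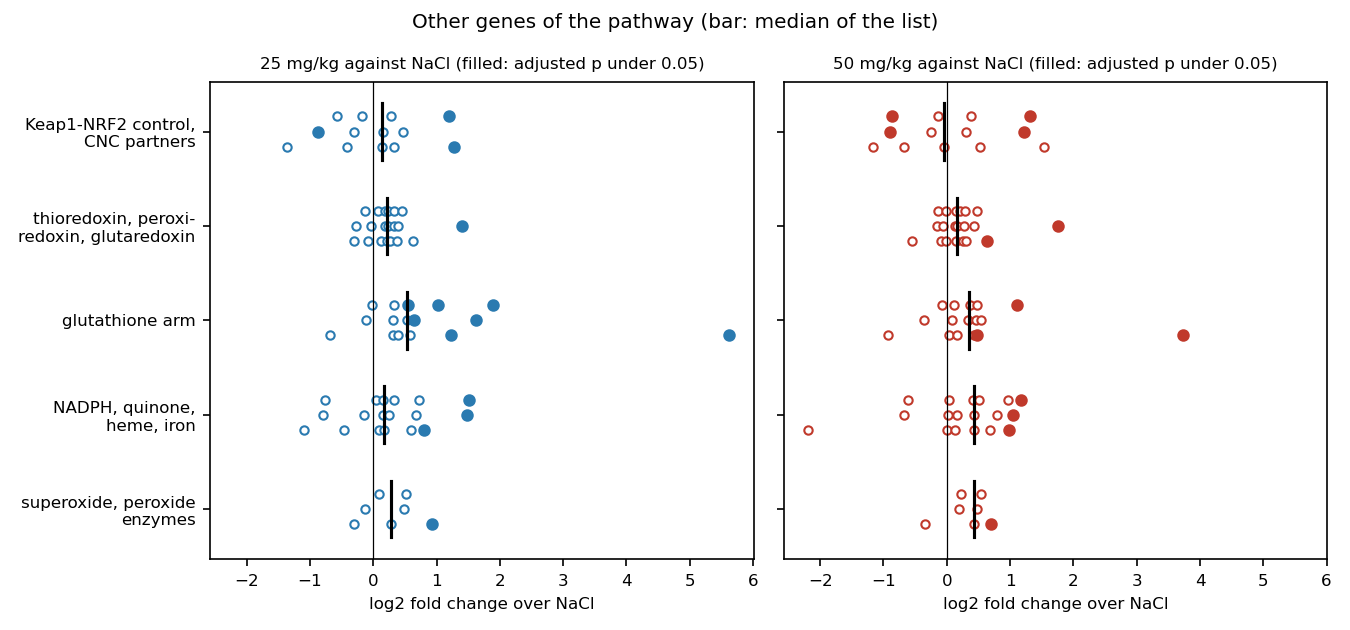
Log2 fold change over NaCl of every tested gene of the 5 lists, in 1 panel per dose; filled points passed the adjusted p threshold of 0.05 and bars are list medians. The glutathione arm has 7 filled points at 25 mg/kg and 3 at 50 mg/kg, and the control list has filled points on both sides of 0.

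Between 50 and 25 mg/kg edgeR called 0 of the 74 list genes tested, with 13 at an unadjusted p under 0.05, against 8.59% of all tested genes; limma-voom called 0 and DESeq2 called 1, Gsta2. Gsta2 averaged 17.9 ± 7.5 CPM after 50 mg/kg and 46.1 ± 16 CPM after 25 mg/kg (-1.36, SE 0.35). Gclc and Ugdh stood at -0.81 (SE 0.22) and -0.83 (SE 0.22), without overlap between the doses and with adjusted p = 0.55 each. In the other direction Me1, malic enzyme, averaged 72.6 ± 18 CPM after 50 mg/kg and 41.0 ± 12 CPM after 25 mg/kg (0.82, SE 0.26, adjusted p = 0.55). With NaCl it averaged 70.8 ± 11 CPM, near the 50 mg/kg mean (0.04, adjusted p = 0.94). At 25 mg/kg Me1 lay below NaCl without overlap (-0.79, SE 0.26, adjusted p = 0.072). From the remaining lists the genes with the lowest p were Cul3 (-0.53, adjusted p = 0.57), Nfe2l1 (0.37, 0.56), Txn1 (0.26, 0.71) and Txnip (-0.55, 0.67). Sod2 (0.83, 0.62) and Gpx1 (-0.23, 0.71) were the others.

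The genes whose profile over the 9 libraries was most like that of Srxn1, by the root mean square difference in log2 CPM after centring each gene, were Otud1 (0.25), Tnfrsf12a (0.38), Dusp10 (0.39), 1700017B05Rik (0.45), Slc20a1 (0.46), Arl4d (0.52), Trib3 (0.53) and Sema4f (0.55). Otud1, a deubiquitinase, averaged 3.17 CPM with NaCl, 42.0 CPM after 25 mg/kg and 28.6 CPM after 50 mg/kg, with its highest mean at 25 mg/kg as Srxn1 had. Tnfrsf12a, the receptor of the cytokine TWEAK, averaged 15.8 CPM with NaCl, 221 CPM after 25 mg/kg and 209 CPM after 50 mg/kg. Nearest to Nfe2l2 were Sbds (0.22), Tob2 (0.22), Oser1 (0.22), Stradb (0.23) and Kif22 (0.23). Kif22 lay between 0.402 and 1.26 CPM over all libraries and Sema4f at no more than 0.134 CPM with NaCl, so few reads lie behind their profiles. Libraries share their depth and treatment across all genes, so this likeness is a description only.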

How the data were processed

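Per the labels' protocols, poly(A) RNA was enriched with oligo(dT), fragmented, copied with random primers and amplified by PCR. Per the submitters' processing notes reads were aligned with HISAT2 to GRCm38; the aligner's version, the counting tool, its annotation and strand use are not given in the sources. The authors deposited raw read counts and FPKM per gene. The deposited FPKM equal, within 1%, the count divided by gene length and column total, so they carry no TMM scaling. They served for comparing levels between genes and for the small Maf sums and shares of each library. Of the gene IDs, 21894 were in GENCODE M21, 21694 with the same start and end.

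The deposited counts were tested with edgeR 4.0.16 (R 4.3.3): filterByExpr (12557 genes kept), TMM scaling, 1 mean per group fitted to all 9 libraries (6 residual degrees of freedom) and the quasi-likelihood F test. Benjamini-Hochberg adjustment ran over all tested genes, with a threshold of 0.05. Each SE was obtained as |log2 fold change| / √F. Log2 CPM used a prior count of 2. A p that misses the threshold does not show that values did not differ. The 17 alternatives comprised 2 other scalings, no filter, DESeq2 1.42.0, limma-voom (limma 3.58.1), fitting just the compared groups, the replicate number as a block, and dropping each library in turn; dropping NaCl replicate 1 together with the second 50 mg/kg library was chosen after seeing the data. Within groups, the mean chi-square per gene between libraries was at least 41.2, well past sampling noise, so none was counted as a duplicate.

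The members and lists were chosen with earlier results of these data known. Named were the 10 genes, up to 3 called genes per list and comparison with the lowest p (up to 2 with the lowest p where none passed), the 8 genes most like Srxn1 and the 5 most like Nfe2l2. Btrc at 50 mg/kg, Gsk3b, Txn1 and Gclc outside their calls, Hmox1, Slc7a11 and Acacb were named after their values were seen. Motifs were searched as exact letters. A protein comparison of the small Maf factors was not analysed here. One further pathway list is not reported here.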

Additional observations from a re-analysis of the deposited data

How the results depend on the processing

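All 20 fold changes of the 10 genes over NaCl kept their direction under the 17 alternatives; counted over all pairs of a gene and an alternative, 14 gained a call at 25 mg/kg, and 24 lost and 2 gained one at 50 mg/kg. With library totals 5 of the 10 genes were called at 25 mg/kg, and with DESeq2 6. At 50 mg/kg 3 were called when only the groups compared were fitted. The replicate block also gave 3 there, and 1108 genes called over the whole table at 25 mg/kg, 1229 at 50 mg/kg and 0 between the doses. The replicate numbers showed no pairing of libraries: correlations of same-numbered libraries ran from -0.23 to 0.14, and 2 of 9 exceeded 0.1. Differently numbered libraries of different groups ran from -0.25 to 0.29. With 3 libraries a group, these correlations cannot exclude a pairing. Leaving out 1 library, the calls among the 10 genes ranged from 2 to 4 at 25 mg/kg and from 3 to 6 at 50 mg/kg, and over the whole table from 629 to 1872 (main 1690), 699 to 1931 (main 1896) and 0 to 3 between the doses. Dropping NaCl replicate 1 and the second 50 mg/kg library together left 987, 668 and 0 genes called. Between the doses library totals gave 0, fitting only those groups 0 and DESeq2 71 genes, against 1. The share of higher calls at 50 mg/kg was 35.5% with library totals and 46.9% with TMM. The cause of these shifts was not tested.

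Between the doses 10 signs turned, none of them of a called gene. With library totals Keap1 stood at -0.062 (main 0.02) and Txnrd1 at -0.012 (main 0.08). With 1 library left out, Keap1 ranged from -0.066 to 0.174 (below 0 for 25 mg/kg replicates 2 and 3, -0.046 and -0.066, and for 50 mg/kg replicates 1 and 3, -0.022 and -0.007), Txnrd1 from -0.126 to 0.185, Nfe2l2 (main -0.07) from -0.276 to 0.122 and Osgin1 (main 0.17) from -0.224 to 0.673. Depth limits Nqo1 most.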
